A study of Mus musculus with 32 samples.

Results

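The change between the first and the third day after a photothrombotic injury of the mouse spinal cord was measured on 8 arrays of the series' 32. The 4 arrays of spinal day 3 are set against the 4 of spinal day 1, with 4 arrays each of cerebral day 3 and cerebral day 1 as the counterpart and 4 controls of each tissue. All mice were male C57BL/6J, aged 6 to 12 weeks and weighing 20 to 25 g at the start, and they differed by tissue (spinal cord or cerebrum) and by time (control, day 1, day 3 or day 7). In photothrombosis a dye in the blood is excited by light and closes the vessels that are lit, which leaves a focal ischemic lesion. Whether the controls were operated on, and whether each array is a separate animal, is not stated in the labels, so p-values measure the spread between these arrays. The comparison took every probe with 1 gene symbol, 19572 of 22206, which gave 19505 genes.

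As background, an ischemic lesion of the central nervous system passes through stages. Injured and neighbouring cells first switch on immediate early genes, cytokines and stress genes, and neutrophils enter. Resident microglia lose their surveying gene programme, monocytes from the blood become macrophages, and both divide and clear debris, while fibroblasts and vessels rebuild the matrix. Astrocytes around the lesion become reactive, and precursors of oligodendrocytes can divide to replace myelin.

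The deposited values, whose log base is not stated and which were read as log2, were centred per probe, so they carry differences between arrays and no level. A difference of 1 log2 unit is a 2-fold difference, and values below, except in the tissue check, are log2 units from the mean of the same tissue's 4 controls, in the order of replicates 1 to 4. Replicate numbers are not in the labels. They were given here by the order of the samples in the series, and they pair nothing between groups. The day 3 arrays had been centred apart from the controls and day 1. The offset of each probe was rebuilt from the 8 controls, with which the centring matched in 86.8% of 5648 probes that could be tested, against 61.7% to 73.4% with other partners. It was a single value in 78.0% of probes and a range in the others, and a difference had to exceed that range to be called. Where trunk Hox genes mark cord and forebrain factors mark cerebrum, the arrays bore out their labels. As deposited, the mean of 14 Hox genes was 0.98 to 1.23 in the spinal day 3 arrays and -1.13 to -0.89 in the cerebral day 3 arrays, and that of 8 forebrain genes was -1.29 to -0.95 against 0.77 to 1.05.

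Spinal day 3 replicate 1 stood apart from the other 3 arrays of its group. Its correlation with them over genes averaged 0.717, against 0.781 to 0.831 for the others, and limma gave it an array weight of 0.22 against 0.52 to 1.47. Its mean level was lower than in each of the other 3 for homeostatic microglia (-0.62 against 0.97 to 1.20), oligodendrocyte precursors (-1.14 against 0.04 to 0.29), homeostatic astrocytes (-1.07 against -0.13 to 0.17), phagocytic microglia (0.683 against 1.295 to 2.007) and myelin (-1.05 against -0.40 to -0.28). It was higher for skeletal muscle genes, which mark tissue beside the cord (-1.08 against -2.49 to -1.86), and for the type I interferon response (1.32 against 0.27 to 0.71), metallothioneins and NRF2 targets (1.31 against 0.29 to 0.75) and immediate early genes (1.21 against 0.37 to 0.65). The part of muscle tissue in this array's values was not tested. On the cell cycle list, too, this array lay lowest of its group, at 1.06 against 1.50 to 2.20. Counts of list members that rose or fell are therefore also given without this array where they differ. In the day 1 group replicate 4 had the lowest correlation with the others, 0.707 against 0.763 to 0.795, and an array weight of 0.60 against 0.93 to 1.26.

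From day 1 to day 3, 2626 genes rose in the cord, which is 13.5% of all genes, and 3666 fell, which is 18.8% (limma against the bound of the offset, Benjamini-Hochberg adjusted p under 0.05). Every count below of list members that rose or fell between the days stands beside these shares. In the main setting large rises outnumbered large falls. Of the genes that changed, 402 rose by over 1 (2.06% of all genes) and 31 fell by over 1 (0.159%). With quantile normalisation these numbers were 136 and 62, so this asymmetry also depended on the scaling. In the main setting the median of all genes was -0.09, and the 5th and 95th percentiles were -0.53 and 0.72. Without replicate 1 of day 3, 2641 rose and 3406 fell, without replicate 4 of day 1, 2157 and 2578, and without replicate 3 of day 3, 2074 and 2616. The balance of directions depended on the scaling, since after shifting each array to a median of 0 there were 3570 rises and 1915 falls, with quantile normalisation 1593 and 1234, and with the values as deposited 1646 and 1390. With a wider allowance of 0.2 for processing differences between the separately centred arrays, chosen after the values were seen, 1066 rose and 582 fell.

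In the cerebrum the same interval held 59 changed genes, 0.302% of all, of which 32 rose and 27 fell. The cord's change minus the cerebrum's, in which the offset drops out, was higher for 940 genes (4.82%) and lower for 659 (3.38%). The cord itself differed from its controls by 3083 genes higher (15.8%) and 3141 lower (16.1%) at day 1, and by 3067 higher (15.7%) and 3888 lower (19.9%) at day 3. These comparisons share arrays, so their values are set side by side and not correlated.

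**Figure D1:**
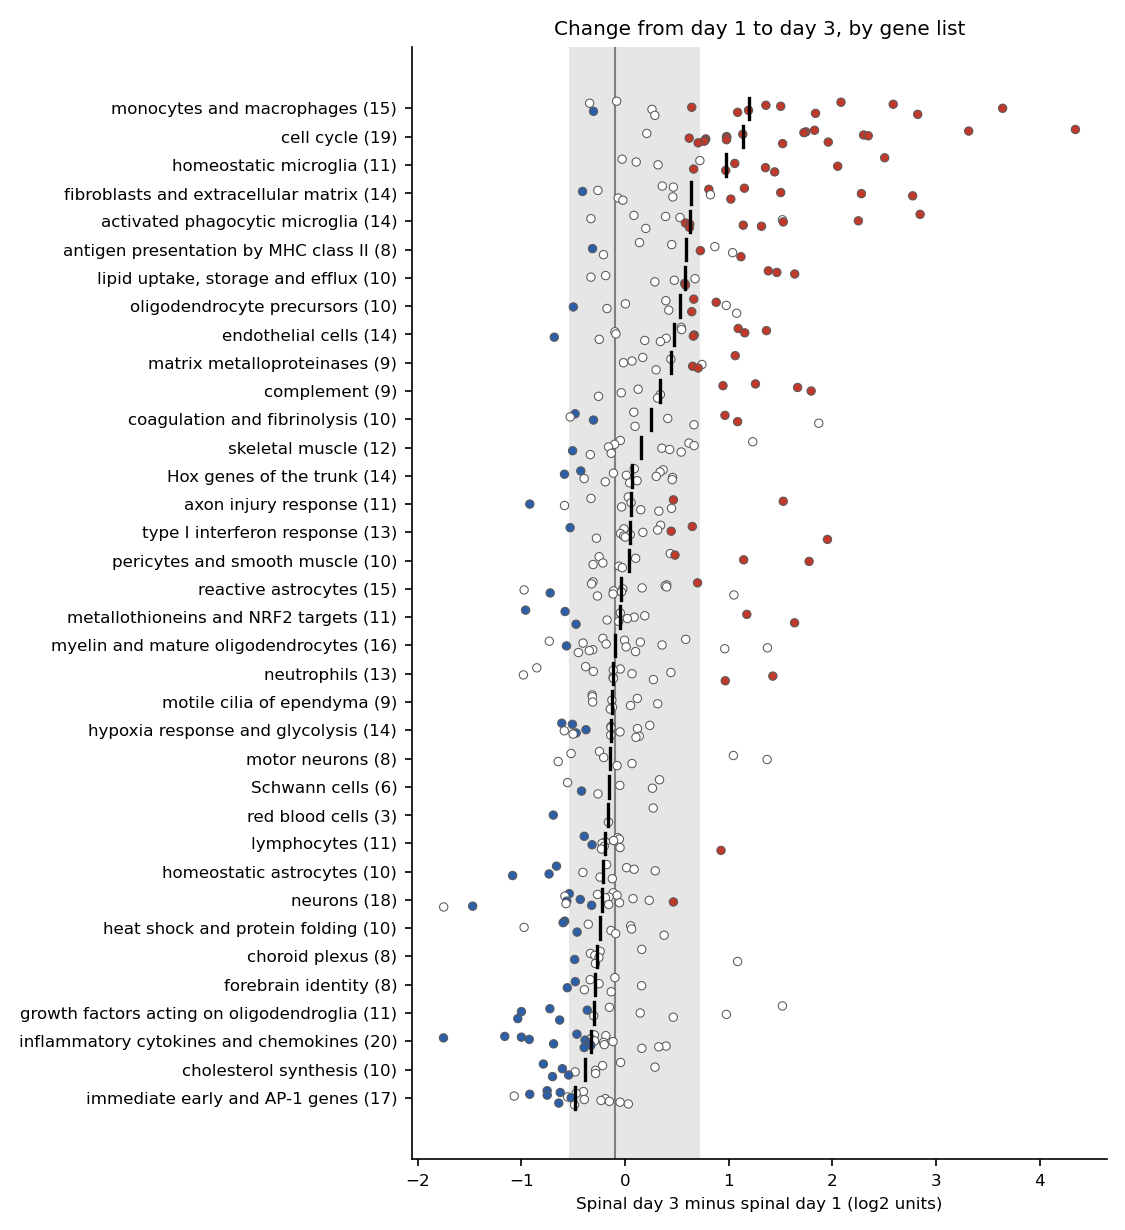
Each row is a gene list with its number of measured genes, each point is 1 gene, and the horizontal axis is spinal day 3 minus spinal day 1 in log2 units. Red points rose and blue points fell at an adjusted p under 0.05, open points did not pass, black bars are list medians, and the grey line and band are the median of all genes, -0.09, and their 5th to 95th percentiles, -0.53 to 0.72. The cell cycle row lies almost wholly to the right, with a median of 1.14, and the immediate early row to the left, with a median of -0.49.

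Cell cycle genes rose almost without exception. Of 19 measured cell cycle genes, 18 rose and none fell, with a median difference of 1.14 against -0.09 for all genes, and Aurka, at 0.21, did not pass. All 18 rises passed without replicate 1 of day 3, with the wider allowance and with each array shifted to a median of 0, and 15 passed with quantile normalisation. At day 1 the list's median was 0.16 above control and 5 genes had risen, and at day 3 it was 1.50 above control and all 19 had risen. The promoters of its members are shown first because the list holds a shared letter pattern.

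RefSeq's GRCm38.p6 promoter table held 16 of the 19 genes. In the 250 bases before the start, the letters CCAAT (or ATTGG, the same on the other strand), known as the box bound by the factor NF-Y, were found in 15 of these 16 promoters, or 93.8%, against 33.8% of all 32851 promoters of the table. The letters TTTGAA (or TTCAAA), part of the cell cycle homology region through which the DREAM complex is known to repress such genes outside division, were in 6 of 16, or 37.5%, against 16% of all. A match is a description of letters and not a site. The 3 members with the largest rises are printed 5′ to 3′ on the gene's strand, with matches to CCAAT and TTTGAA on either strand in capitals and with no base inside the gene's span. The window of Mki67 lies on the minus strand at chr7:135716451-135716629, that of Cdk1 on the minus strand at chr10:69352913-69353162 and that of Bub1 on the minus strand at chr2:127831860-127832109.
Mki67: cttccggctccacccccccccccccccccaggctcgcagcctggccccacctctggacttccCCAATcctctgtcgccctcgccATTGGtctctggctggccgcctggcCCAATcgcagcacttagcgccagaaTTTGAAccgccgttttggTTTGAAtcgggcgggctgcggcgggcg
Cdk1: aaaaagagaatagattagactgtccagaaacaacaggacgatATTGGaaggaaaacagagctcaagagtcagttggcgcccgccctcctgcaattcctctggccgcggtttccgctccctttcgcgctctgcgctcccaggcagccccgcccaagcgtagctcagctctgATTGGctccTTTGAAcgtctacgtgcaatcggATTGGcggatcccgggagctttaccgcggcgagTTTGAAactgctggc
Bub1: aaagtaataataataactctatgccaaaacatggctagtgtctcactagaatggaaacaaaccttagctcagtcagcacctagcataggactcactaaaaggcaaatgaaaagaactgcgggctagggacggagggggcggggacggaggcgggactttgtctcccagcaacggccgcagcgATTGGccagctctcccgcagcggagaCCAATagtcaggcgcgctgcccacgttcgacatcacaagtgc
The windows of Mki67 and Cdk1 each hold 3 CCAAT and 2 TTTGAA matches, and that of Bub1 holds 2 and none. CCAAT was in 38.5% of 13 promoters of the monocyte and macrophage list, in 44.4% of 9 of the homeostatic microglia list and in 38.5% of 13 of the phagocytic list described below. The AP-1 letters TGANTCA were in 0 of the 16 cell cycle promoters, against 6.75% of all.

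Mki67, the marker of cycling cells, was at 0.63, -0.25, -0.21 and -0.24 on day 1 and at 2.73, 3.95, 5.28 and 5.34 on day 3. The groups did not overlap, and replicate 1 was the lowest of day 3. The difference was 4.34 ± 0.36 (SE, adjusted p in limma 1.4e-09). Cdk1, the kinase that drives entry into mitosis, stood at 1.09, -0.05, -0.13 and 0.61 on day 1 and at 2.44, 3.26, 4.70 and 4.37 on day 3, again with no overlap, and rose by 3.32 ± 0.35 (adjusted p 1.2e-07). Bub1, a kinase of the spindle checkpoint, was at 0.26, -0.18, -0.11 and -0.31 and then at 1.0, 2.27, 2.93 and 2.85, a rise of 2.35 ± 0.25 (adjusted p 9.9e-08). The largest rise among the genes named was that of Pbk (chr14:65805911-65817822), a mitotic kinase outside the list, from 0.84, -0.54, -0.41 and 0.07 to 3.71, 4.64, 5.27 and 5.73, which is 4.85 ± 0.38 (adjusted p 7.5e-10). The DNA replication factor Pclaf rose by 2.83 ± 0.36 (adjusted p 1.3e-06) and E2f8, a repressor of the E2F family, by 2.76 ± 0.26 (adjusted p 2.1e-08).

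Other members of the list rose by smaller amounts. Plk1, a mitotic kinase, rose by 2.30 ± 0.27, Tpx2, a spindle assembly factor, by 1.96 ± 0.15, and Top2a, which untangles chromosomes, by 1.83 ± 0.22. The replicative helicase subunits Mcm2, Mcm5 and Mcm6 rose by 0.62 ± 0.14, 0.78 ± 0.18 and 0.98 ± 0.18, and Pcna, the sliding clamp of DNA polymerase, by 0.76 ± 0.15. These 4 replication genes and Aurka were also the 5 that had passed the test against control at day 1, by 0.51 (Mcm2), 0.60 (Mcm5), 0.59 (Mcm6), 0.73 (Pcna) and 0.35 (Aurka). Mcm2, Mcm5 and Pcna did not pass with quantile normalisation, with adjusted p in limma of 0.088, 0.078 and 0.079.

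**Figure D2:**
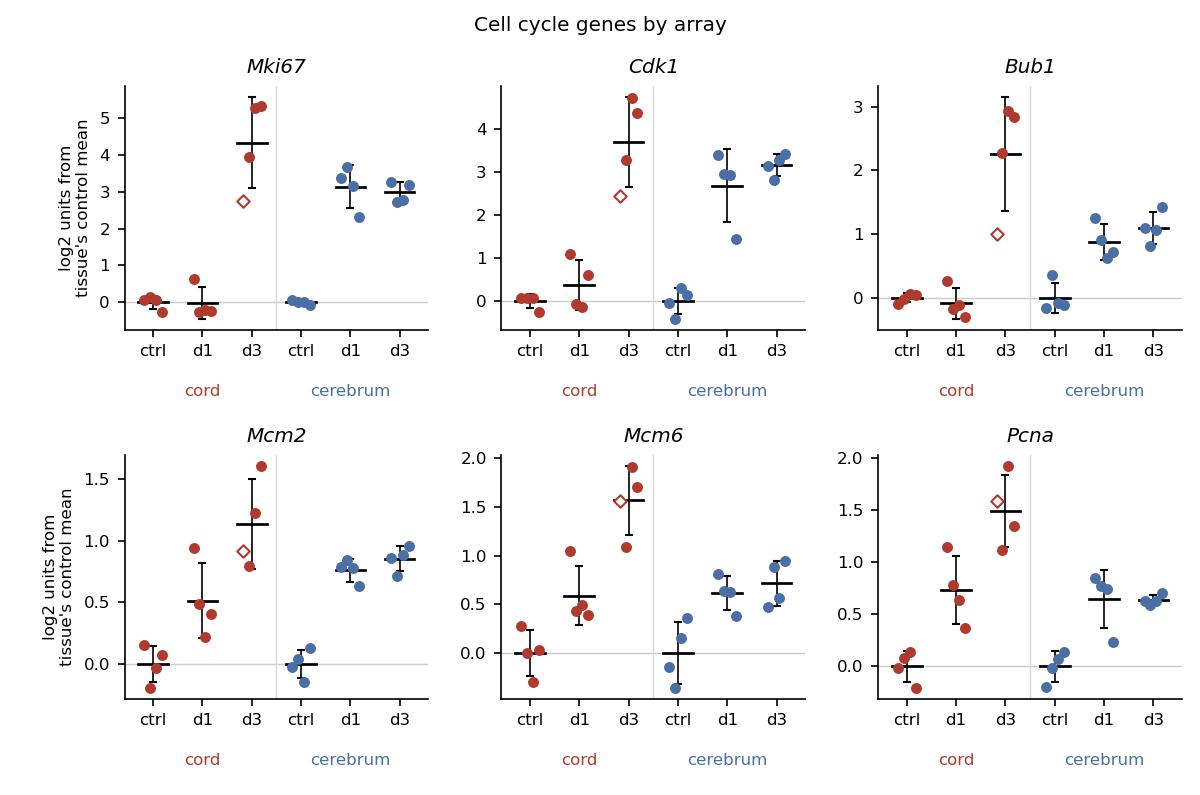
Each panel is 1 cell cycle gene, with the value of every array in log2 units from its tissue's control mean on the vertical axis, for cord (red) and cerebrum (blue) at control, day 1 and day 3. Bars are means, whiskers are SDs over 4 arrays, and the open diamond is spinal day 3 replicate 1. In the cord Mki67 is near 0 at day 1 and between 2.73 and 5.34 at day 3, while in the cerebrum it is between 2.31 and 3.68 at day 1 and between 2.73 and 3.27 at day 3.

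In the cerebrum the cell cycle list was above control by day 1. The list's mean was 0.70 to 1.25 above control in the 4 cerebral day 1 arrays and 1.05 to 1.23 in those of day 3, while the cord went from between 0.05 and 0.44 to between 1.06 and 2.20. The day 3 minus day 1 median of the list was 0.06 in the cerebrum, and the cord's change exceeded the cerebrum's for 16 of the 19 genes against 4.82% of all genes. For Mki67 this difference was 4.48 ± 0.50 (adjusted p in limma 2.7e-06), for Pbk 4.51 ± 0.54 (5.9e-06) and for Cdk1 2.83 ± 0.50 (0.00094), of which Cdk1 did not pass with quantile normalisation (1.51).

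Homeostatic microglial genes, which resting microglia use to sense their surroundings, had a higher mean than at day 1 on all day 3 arrays but replicate 1. The list's mean was -0.32, -0.57, -0.44 and -0.22 on day 1 and -0.62, 1.20, 0.97 and 0.98 on day 3. Replicate 1 of day 3 thus lay below every day 1 array. Of 11 measured, 7 rose and none fell, with a median of 0.97, and without replicate 1 of day 3 there were 9 rises. For 1 of the 11 all day 3 arrays lay above all of day 1, against 1779 of all 19505 genes. At day 1 the list's median lay 0.21 below control, with 2 genes higher and 3 lower, against 15.8% and 16.1% of all genes. At day 3 it lay 0.77 above, with 6 higher and 1 lower. As these are whole-tissue samples, a change in the number of cells of a type and a change in the RNA of each cell cannot be told apart, here and below. P2ry12, the purine receptor that guides microglial processes, was at -1.83, -2.49, -2.35 and -2.25 on day 1 and at -0.85, 1.40, 0.39 and 0.15 on day 3. All 4 day 3 arrays lay above all 4 of day 1, and replicate 1 alone stayed below control. Its rise was 2.50 ± 0.25 (adjusted p in limma 3.9e-08), and at day 3 it was 0.27 above control, which did not pass the test (adjusted p 0.42).

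In several other microglial genes replicate 1 also lay below the rest of its group. Gpr34, a lysophosphatidylserine receptor, was at -0.73, -1.22, -0.75 and -0.42 on day 1 and at -0.61, 2.05, 2.22 and 1.43 on day 3, so that replicate 1 lay within the day 1 range and the other 3 lay above it. It rose by 2.05 ± 0.33 (adjusted p 4.7e-05) and by 2.68 without that array. Csf1r, the receptor for the survival factor of microglia and macrophages, was at 0.20 in replicate 1 and at 1.82 to 2.27 in the others, and rose by 1.36 ± 0.24. Cx3cr1, the fractalkine receptor, differed by 0.72 ± 0.32 and did not pass (adjusted p 0.081), but rose by 1.32 without replicate 1 (adjusted p 9.0e-06). Siglech, a lectin of microglia, rose by 1.06 ± 0.30 from a day 1 mean 1.81 below control, and without replicate 2 of day 3 its difference of 0.68 did not pass (adjusted p in limma 0.061). Tmem119, another microglial marker, differed by -0.03 ± 0.15 and did not pass.

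**Figure D3:**
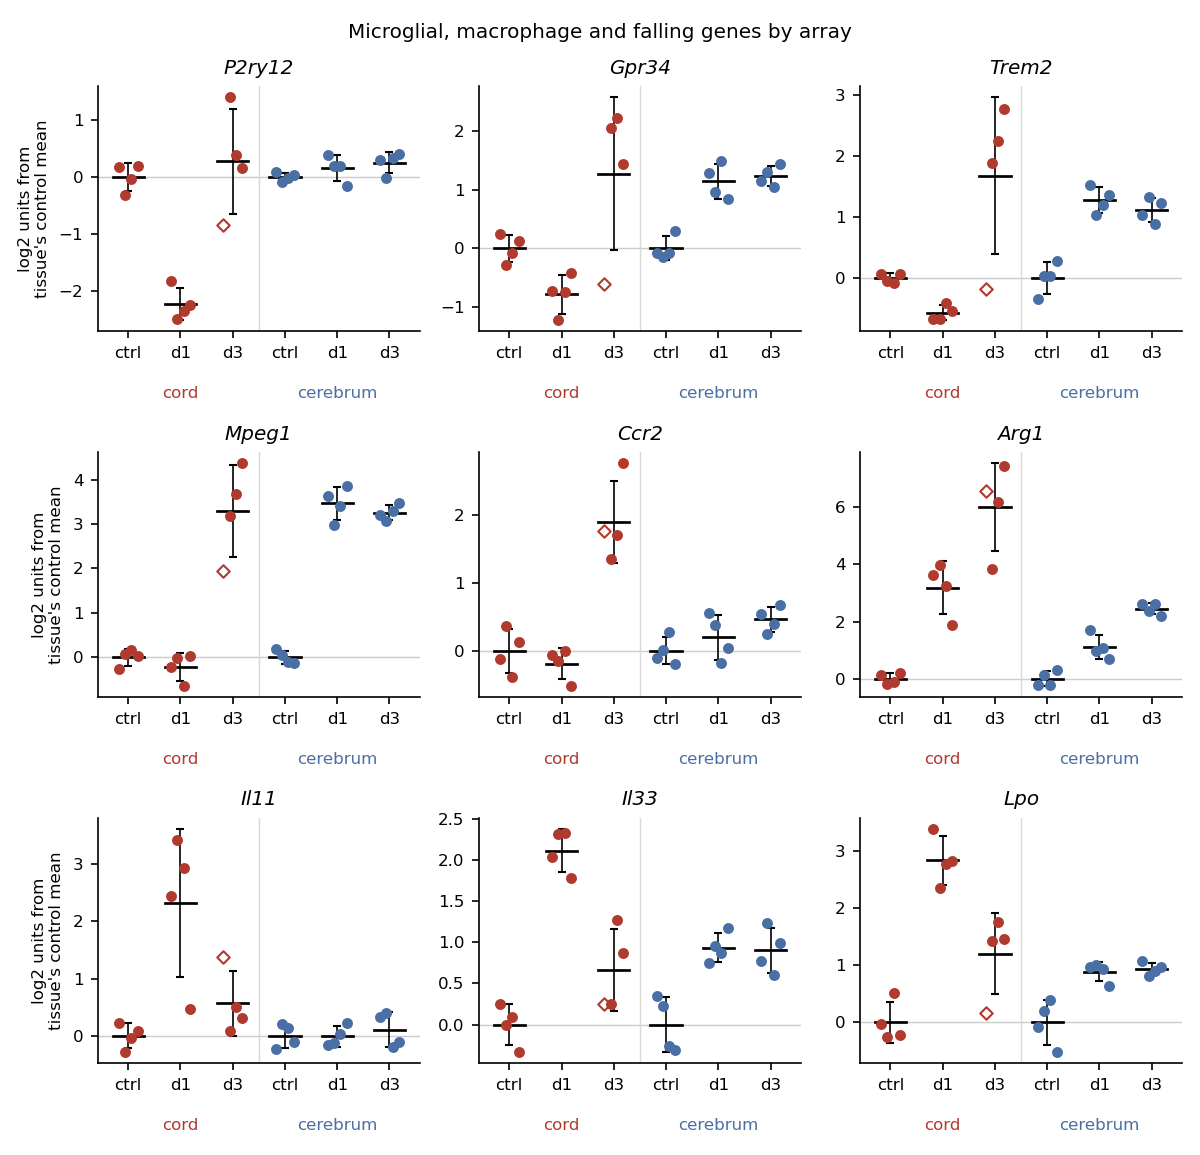
Panels show 6 genes of microglia and macrophages and 3 that fell, with every array's value in log2 units from its tissue's control mean on the vertical axis, for cord (red) and cerebrum (blue). Bars are means, whiskers SDs over 4 arrays, and the open diamond is spinal day 3 replicate 1. P2ry12 is between -2.49 and -1.83 in the cord at day 1 and between -0.16 and 0.38 in the cerebrum, and Il33 falls from 1.78 to 2.34 at day 1 to 0.25 to 1.27 at day 3 in the cord.

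Macrophage genes rose with them. Of 15 measured genes of monocytes and macrophages, 10 rose and 1 fell (F10, coagulation factor X, by 0.30), with a median of 1.19, and without replicate 1 of day 3, 8 rose and Cd14 in place of F10 fell. In all, 13 were above control at day 3 against 6 at day 1. Ms4a7 (chr19:11321039-11336146), a membrane protein of macrophages, stood at -0.14, 0.06, -0.13 and -0.01 on day 1 and at 0.94, 3.11, 4.0 and 6.30 on day 3. The groups did not overlap and the day 3 arrays spread over more than 5 units. It rose by 3.64 ± 0.56 (adjusted p in limma 2.4e-05). Mpeg1 (chr19:12460770-12465285), which encodes a pore-forming protein of phagocytes, went from -0.23, -0.02, -0.65 and 0.02 to 1.93, 3.17, 3.68 and 4.37, a rise of 3.51 ± 0.28 (adjusted p 1.4e-09). Ccr2, the chemokine receptor of inflammatory monocytes, was at -0.07, -0.16, -0.01 and -0.52 and then at 1.77, 1.35, 1.70 and 2.76, with no overlap, and rose by 2.08 ± 0.21 (adjusted p 7.1e-08).

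The arginine-degrading enzyme Arg1 was already 3.19 above control at day 1, at 3.65, 3.98, 3.26 and 1.87, and reached 6.56, 3.86, 6.19 and 7.45 at day 3. Replicate 2 of day 3 lay within the day 1 range, and the rise was 2.82 ± 0.44 (adjusted p in limma 2.5e-05). Cybb, the catalytic subunit of the phagocyte oxidase, rose by 3.29 ± 0.37, the lysozyme gene Lyz2 by 2.59 ± 0.48, Cd300c2, a receptor of the CD300 family of myeloid cells, by 2.71 ± 0.30 and Adgre1, which encodes the macrophage marker F4/80, by 1.36 ± 0.26. The bounds for the offsets of Cybb and Lyz2 were as wide as 0.53 and 0.68. Chil3, a secreted chitinase-like protein, rested on replicate 1, at 5.73 there and 0.54, 1.96 and 4.06 in the others. Its rise of 1.84 ± 0.54 (adjusted p 0.010) became 0.95 without that array and did not pass (adjusted p 0.071). Cd14, a co-receptor for bacterial products, was 2.40 above control at day 1 and 2.06 at day 3, and its difference of -0.34 ± 0.24 did not pass.

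Genes of activated phagocytic microglia rose in 8 of 14 measured cases with no fall, at a median of 0.62, and in 9 without replicate 1 of day 3. Trem2, the lipid receptor of phagocytes, was at -0.67, -0.67, -0.41 and -0.54 on day 1 and at -0.18, 1.88, 2.24 and 2.77 on day 3. It lay below control on all 4 day 1 arrays and on replicate 1 of day 3, and above it on the other 3 arrays of day 3. The rise was 2.25 ± 0.33 (adjusted p in limma 1.1e-05). Its signalling partner Tyrobp rose by 1.53 ± 0.22, Gpnmb, a glycoprotein of lipid-laden phagocytes, by 2.85 ± 0.57, the galectin Lgals3 by 1.32 ± 0.25 and the lysosomal protease Ctsz by 1.14 ± 0.24. Lgals3 did not pass with quantile normalisation (adjusted p 0.11). The lipid carrier Apoe rose by 0.58 ± 0.22 (adjusted p 0.046), a call that was lost on leaving out any 1 of the day 1 arrays or any of replicates 2, 3 and 4 of day 3, with differences of 0.35 to 0.64. Igf1, a growth factor for oligodendroglia, differed by 1.52 ± 0.53, but its offset was known only within 0.89 either way and it did not pass (adjusted p 0.22).

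Of 9 complement genes 4 rose and none fell, and 5 rose without replicate 1 of day 3. With all arrays they were the 3 chains of the recognition protein C1q, C1qa by 1.26 ± 0.23, C1qb by 0.95 ± 0.19 and C1qc by 1.67 ± 0.28, and the anaphylatoxin receptor C3ar1, which went from 2.0, 1.90, 1.85 and 2.0 to 3.30, 2.87, 3.69 and 5.06. Of 10 genes of lipid uptake, storage and efflux, 5 rose and none fell, with a median of 0.58, and 3 rose without replicate 4 of day 1 or replicate 3 of day 3, and 6 without replicate 1 of day 3. The cholesterol exporter Abca1 rose by 1.64 ± 0.23, the lipid droplet coat protein Plin2 by 1.46 ± 0.27 and the scavenger receptor Cd36 by 1.38 ± 0.28, while the scavenger receptor Msr1 was 1.74 above control at day 1 and differed by 0.29 ± 0.25, which did not pass. Of 8 genes of MHC class II presentation, 2 rose, H2-DMa, a peptide-loading chaperone, by 0.73 ± 0.15 and the protease Ctss by 1.12 ± 0.20, and 1 fell, the regulator Ciita by 0.31, while the classical chain genes H2-Aa, H2-Ab1 and H2-Eb1 differed by 0.14, 0.45 and 0.87 and did not pass. Without replicate 1 of day 3, 3 of these 8 rose and none fell. With quantile normalisation the rises were 6 of 15 for macrophages, 5 of 11 for homeostatic microglia, 5 of 14 for phagocytic genes and 2 of 10 for lipid genes.

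In the cerebrum these myeloid lists were above control on both days, and none of their genes passed the test between the days. The homeostatic microglia list averaged 0.72 to 0.87 above control in cerebral day 1 arrays and 0.71 to 0.87 in day 3 arrays, and activated phagocytic genes 0.90 to 1.52 and 1.02 to 1.11. The cord's change exceeded the cerebrum's for 5 of 11 homeostatic, 7 of 14 phagocytic, 6 of 15 macrophage and 4 of 9 complement genes, against 4.82% of all genes. For Mpeg1 the difference was 3.71 ± 0.40 (adjusted p in limma 2.3e-06), for P2ry12 2.41 ± 0.35 (9.2e-05), for Trem2 2.41 ± 0.47 (0.0020) and for Gpnmb 3.33 ± 0.81 (0.011). For Arg1, which in the cerebrum was at 0.69 to 1.70 on day 1 and 2.20 to 2.62 on day 3, it was 1.48 ± 0.62 and did not pass (adjusted p 0.13). Gpnmb was at 1.72, 1.59, 1.37 and 4.48 on the cerebral day 1 arrays and at 1.41 to 1.99 on those of day 3. Replicate 4 thus raised its cerebral day 1 mean, though the contrast passed with each array left out in turn.

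**Figure D4:**
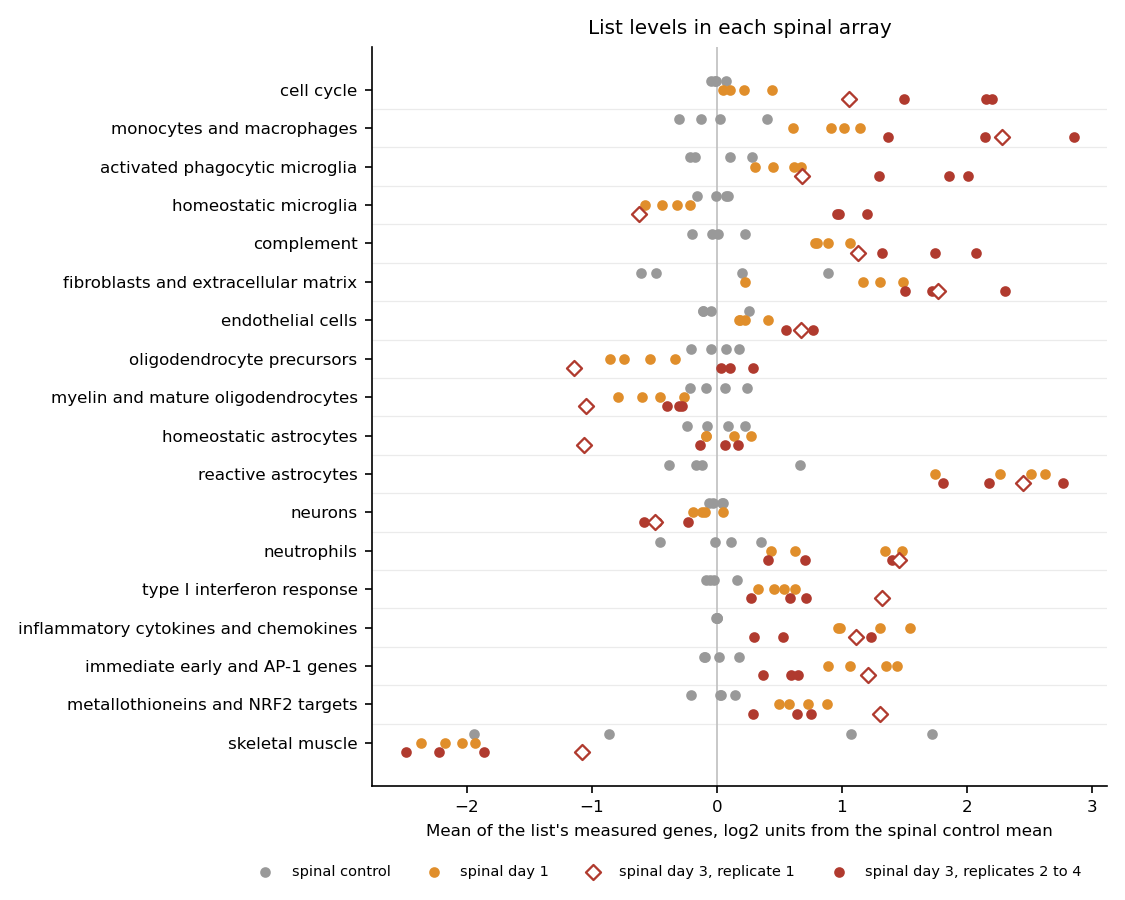
Each point is the mean of a list's measured genes in 1 spinal array, in log2 units from the spinal control mean on the horizontal axis, for controls (grey), day 1 (orange) and day 3 (red, with replicate 1 as an open diamond). The homeostatic microglia list is at -0.62 in replicate 1 of day 3 and at 0.97 to 1.20 in the other 3, and the 4 controls of the skeletal muscle list spread from -1.94 to 1.72.

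For neutrophil and lymphocyte genes the counts lay near or below the shares of all genes, 13.5% that rose and 18.8% that fell. Of 13 neutrophil genes 2 rose, Csf3r and the granule gene Ngp, and none fell, at a median of -0.11, which was 0.02 without replicate 3 of day 3. Csf3r, the receptor for granulocyte colony-stimulating factor, rose by 1.43 ± 0.19 (adjusted p in limma 4.0e-06). The calprotectin subunit S100a8 was at 1.71, 3.63, 2.81 and 0.80 on day 1 and at 3.15, 1.15, 0.70 and 2.44 on day 3, with overlapping groups, and its difference of -0.38 ± 0.47 did not pass. Retnlg, a granulocyte gene, was at 3.14 in replicate 1 of day 3 and at 0.36, 0.05 and 0.40 in the others. It did not pass with all arrays (-0.98 ± 0.49, adjusted p 0.12) and fell by 1.70 without replicate 1 (adjusted p 0.0024). Without that array, 1 neutrophil gene rose and 3 fell. Of 11 lymphocyte genes 1 rose, Il7r by 0.93 ± 0.25, and 2 fell.

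Genes of the fibrous matrix rose in part, beside 13.5% of all genes that rose and 18.8% that fell. Of 14 fibroblast and matrix genes 6 rose and 1 fell, and 5 and 1 without replicate 1 of day 3, with a median of 0.64, and 10 were above control at day 3 against 6 at day 1. This count rested on replicate 4 of day 1, which lay lowest of its group at 0.23 for the list's mean against 1.17 to 1.49, since 2 rose without it, 3 rose without replicate 3 of day 3 and 1 with quantile normalisation. The mean of 6 Schwann cell genes was also lowest in that array of its group, at -0.24 against 0.43 to 0.77, and lay at 0.12 to 0.51 on day 3. The controls split alike on both lists, at -0.49, 0.89, -0.60 and 0.20 for the fibroblast list and -0.61, 1.02, -0.72 and 0.31 for the Schwann cell list, and the part of nerve tissue outside the cord in the matrix counts was not tested. Postn, the matricellular protein periostin, was at 0.27, 0.43, -0.08 and -0.75 on day 1 and at 2.26, 1.89, 3.64 and 1.20 on day 3, with no overlap, and rose by 2.28 ± 0.39 (adjusted p in limma 8.1e-05). Lum, a proteoglycan that binds collagen fibrils, rose by 2.78 ± 0.54 (adjusted p 0.0055). The bound for its offset was as wide as 0.91, and Lum did not pass with quantile normalisation (adjusted p 0.15). Fn1, fibronectin, rose by 1.50 ± 0.37 (adjusted p 0.028) and the fibrillar collagen gene Col3a1 by 1.15 ± 0.40 (adjusted p 0.044), and neither passed without replicate 4 of day 1 (1.19 and 0.76) or replicate 3 of day 3 (1.38 and 0.67). Nor did Fn1 without replicate 4 of day 3 (1.38) or Col3a1 without replicate 3 of day 1 (1.09). The basement membrane collagen gene Col4a1 fell by 0.41 ± 0.09, from 0.58 to 0.78 on day 1 to 0.14 to 0.33 on day 3.

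The next 3 lists stand beside the same 13.5% of all genes that rose and 18.8% that fell. Of 9 matrix metalloproteinase genes 3 rose, among them Mmp2 by 1.06 ± 0.27 and Mmp14, the membrane protease that activates it, by 0.71 ± 0.24, and 1 rose without replicate 4 of day 1 or replicate 3 of day 3. Mmp14 did not pass without either of these (0.52 and 0.68) or without replicate 4 of day 3 (0.53). With quantile normalisation none of the 9 rose, Mmp2 included, at a list median of 0.08 against 0.44. Of 10 pericyte and smooth muscle genes 3 rose, and the actin-binding protein gene Tagln went from 2.58, 2.52, 2.82 and 2.50 to 4.07, 3.97, 4.67 and 4.81, a rise of 1.78 ± 0.26 (adjusted p in limma 0.00030). It did not pass with quantile normalisation (adjusted p 0.52). The smooth muscle actin gene Acta2 rose by 1.15 ± 0.30. Nor did Acta2 pass with quantile normalisation, where none of the 10 rose. Of 10 genes of coagulation and fibrinolysis 2 rose and 2 fell, near the shares of all genes, and F13a1, which stabilises fibrin and is made by macrophages, rose by 1.09 ± 0.23.

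Some endothelial genes rose, among them Kdr and Tek from below control. Of 14 endothelial genes 5 rose and 1 fell, against 13.5% and 18.8% of all genes, with a median of 0.47. With each array shifted to a median of 0, 8 rose. With quantile normalisation 4 rose and 1 fell, at a median of 0.10. At day 1 the list's median was 0.38 above control, with 8 genes higher and 4 lower. Kdr, the main receptor for VEGF, was at -0.61, -0.65, -0.56 and -0.81 on day 1 and at 0.31, 0.47, 0.97 and 1.08 on day 3. All day 1 arrays lay below control and all day 3 arrays above it, and the rise was 1.36 ± 0.16 (adjusted p in limma 4.2e-07). The angiopoietin receptor gene Tek went from -0.43, -0.86, -0.65 and -1.22 to 0.10, 0.33, 0.59 and 0.44, a rise of 1.16 ± 0.17. Flt1, another receptor for VEGF, was at 0.08, 0.48, 0.52 and 0.15 on day 1 and at 0.14 to 0.29 on day 3, and did not pass (-0.10 ± 0.10). The tight junction gene Cldn5 rose by 1.09 ± 0.18 and the efflux pump gene Abcb1a by 0.66 ± 0.16. Mfsd2a, a lipid transporter of the barrier, fell by 0.68 ± 0.21 (adjusted p 0.030), a call lost without replicate 1 or 3 of day 3 (-0.56 and -0.66) or replicate 3 or 4 of day 1 (-0.68 and -0.45). For Kdr the cord's change exceeded the cerebrum's by 1.66 ± 0.22 (adjusted p 5.3e-05).

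A part of the inflammatory genes that were raised at day 1 was lower at day 3, and the day 3 arrays differed in this. Of 20 inflammatory cytokines and chemokines 10 fell and none rose, against 18.8% of all genes that fell, with a median of -0.33. The list's median was 0.74 above control at day 1, with 16 genes higher, and 0.41 above at day 3, with 9 higher. Its mean was 0.97, 1.55, 1.31 and 0.98 on the day 1 arrays and 1.11, 0.30, 0.53 and 1.23 on those of day 3. Replicates 1 and 4 of day 3 thus lay within the day 1 range. For 2 of the 20 genes all day 3 arrays lay below all of day 1, against 3079 of all 19505 genes. The small falls were sensitive to the processing, as 2 fell with the wider allowance, 4 with each array shifted to a median of 0, 4 without replicate 3 of day 3, 6 without replicate 4 of day 1 and 9 without replicate 1 of day 3. Lists of cells that cord lacks had medians of a like size, -0.29 for forebrain genes with 2 of 8 falling and -0.27 for choroid plexus genes with 1 of 8. The forebrain list's mean was 0.10 to 0.31 on the day 1 arrays and -0.27 to 0.08 on those of day 3, and its part in the smaller falls was not tested. Il11, a cytokine of the interleukin 6 family, was at 2.44, 3.42, 2.94 and 0.48 on day 1 and at 1.38, 0.09, 0.50 and 0.31 on day 3. Replicate 4 of day 1 lay within the day 3 range, and the fall was 1.75 ± 0.34 (adjusted p in limma 0.00032). Lif, of the same family, went from 0.90, 1.34, 1.26 and 0.74 to 0.10, -0.21, -0.18 and 0.53, with no overlap, and fell by 1.0 ± 0.17 (adjusted p 8.1e-05).

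Il6 was at 2.46, 3.77, 2.75 and 1.65 on day 1, and on day 3 at 3.41 in replicate 1 and 0.43, 1.09 and 1.06 in the others. It fell by 1.16 ± 0.38 (adjusted p in limma 0.019) and by 1.80 without replicate 1, and the call was lost without replicate 2 of day 1 (-0.79) or any of replicates 2, 3 and 4 of day 3 (-0.80, -1.02 and -1.01). The macrophage chemokine gene Ccl3 fell by 0.92 ± 0.30 but stayed 2.51 above control, and its call was lost without replicate 2 or 3 of day 1 (-0.72 and -0.70) or replicate 2 or 3 of day 3 (-0.80 and -0.86). Il1b, at 2.58, 4.52, 2.03 and 2.24 and then at 2.81, 0.61, 1.79 and 4.99, and the monocyte attractant Ccl2, at -0.33 ± 0.27, did not pass with all arrays. Il33, an alarmin stored in nuclei of glia (chr19:29925113-29960718), was outside the list. It went from 2.04, 2.32, 2.34 and 1.78 to 0.25, 0.25, 1.27 and 0.87, with no overlap, and fell by 1.46 ± 0.19 (adjusted p 2.0e-06).

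Of 11 growth factor genes that act on oligodendroglia 5 fell and none rose, against 18.8% and 13.5% of all genes. Hbegf, a ligand of the EGF receptor, went from 1.53, 1.89, 2.42 and 1.59 to 1.35, 0.28, 0.90 and 0.76, and fell by 1.03 ± 0.21 (adjusted p in limma 0.00061). Pdgfa, the mitogen of oligodendrocyte precursors, fell by 0.72 ± 0.10, from 0.34 to 0.62 above control on every day 1 array to between -0.51 and 0.09. Osm, oncostatin M, fell by 0.63 ± 0.14, and Lif is also on this list. Pdgfb, another platelet-derived growth factor, fell by 0.36 ± 0.11, and 4 falls remained with the wider allowance.

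Immediate early and AP-1 genes, which are switched on within minutes of a stimulus, fell in 6 of 17 cases and rose in none, against 18.8% and 13.5% of all genes. The median was -0.49, and 7 fell without replicate 1 of day 3. Their median was 1.07 above control at day 1, with 12 genes higher, and 7 were higher at day 3. Jun was at 1.31, 1.88, 1.71 and 1.06 on day 1, and on day 3 at 1.29 in replicate 1 and 0.05, 0.53 and 0.43 in the others, and fell by 0.92 ± 0.25 (adjusted p in limma 0.0058). Fos fell by 0.75 ± 0.16 from a day 1 mean of 2.02, and Junb by 0.75 ± 0.23 from 3.07, a call lost without replicate 2 of day 3 (-0.56). The injury factor Atf3, at 1.99 to 3.44 on day 1 and 2.41 to 2.92 on day 3, differed by 0.03 ± 0.23 and did not pass. The cord's change was below the cerebrum's for 8 of the 17 genes against 3.38% of all, and the cerebral list mean was below control in 7 of 8 injured arrays. The exception was cerebral day 3 replicate 2, at 0.08 against -0.51 to -0.22 in the rest of its group. The part of this array in the list's contrast was not tested.

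The stress and metabolic lists held falls and rises that stand beside the 18.8% of all genes that fell and the 13.5% that rose. Of 10 heat shock genes 3 fell, among them the paralogs Hspa1a by 0.58 ± 0.12 and Hspa1b by 0.60 ± 0.11, whose sequences are nearly identical so that probes may not separate them. Of 11 metallothioneins and NRF2 targets 2 rose and 3 fell, and 1 and 3 without replicate 1 of day 3. The zinc-binding protein gene Mt1 went from 1.23, 1.98, 2.39 and 1.98 to 1.72, 0.15, 0.56 and 1.32 and fell by 0.96 ± 0.24. Hmox1, which degrades heme, rose by 1.18 ± 0.37 (adjusted p in limma 0.015) and did not pass without replicate 1 (0.82) or replicate 3 (1.05) of day 3. The cystine transporter gene Slc7a11 rose by 1.64 ± 0.37. None of these 11 genes rose with quantile normalisation or with the values as deposited, and 3 fell under each. Of 14 genes of hypoxia and glycolysis 4 fell, among them Vegfa by 0.61 ± 0.16 and the glucose transporter gene Slc2a1 by 0.51 ± 0.14, 2 fell without replicate 3 of day 3 or replicate 4 of day 1, and none fell with the wider allowance. Of 10 genes of cholesterol synthesis 4 fell, among them the squalene enzymes Sqle by 0.79 ± 0.18 and Fdft1 by 0.60 ± 0.13, and 1 fell with the wider allowance.

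The largest falls named by rule came from several kinds of gene. Itih3 (chr14:30908572-30923787), a heavy chain that binds hyaluronan, was at 0.46, 0.25, 0.29 and 0.48 on day 1 and at -1.75, -0.81, -1.47 and -2.02 on day 3, and fell by 1.88 ± 0.29 (adjusted p in limma 4.7e-05). Lpo (chr11:87806428-87826114), lactoperoxidase, went from 3.39, 2.36, 2.78 and 2.83 to 0.16, 1.43, 1.75 and 1.47, a fall of 1.64 ± 0.23 (adjusted p 8.5e-06). In both the groups did not overlap, Itih3 going from above control to below it and Lpo staying above it. The GTPase gene Rhoj, the TWEAK receptor gene Tnfrsf12a, the actin-linked Pdlim4 and Lalba, a milk protein, were 4.11, 3.41, 1.50 and 1.34 above control at day 1 in turn, and fell by 1.42 ± 0.39, 1.35 ± 0.28, 1.12 ± 0.15 and 1.34 ± 0.14. The stress gene Gadd45b, named for the contrast with the cerebrum, fell by 1.42 ± 0.41 from 2.29, with replicate 1 of day 3 at 2.46 and the others at -0.30 to 0.75, and did not pass without replicate 2 of day 3 (-1.03).

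Other genes that fell had day 3 means below control. The histamine receptor gene Hrh3 went from -1.0, -0.96, -1.28 and -0.99 to -2.60, -1.77, -1.92 and -2.54, a fall of 1.15 ± 0.15 (adjusted p in limma 2.4e-06). The receptor gene Gpr83 fell by 1.27 ± 0.22 and Etnppl, an enzyme of astrocytes that breaks down phosphoethanolamine, by 1.22 ± 0.27, to means 1.33 and 1.50 below control. The aggrecan-cleaving protease gene Adamts4 fell by 1.13 ± 0.20 and did not pass with the wider allowance (adjusted p 0.072). The bound for its offset was as wide as 0.42. Slc6a5, the glycine transporter of inhibitory neurons, fell by 1.47 ± 0.21 (adjusted p 0.019), but its offset was known only within 0.87 either way. That call was lost without replicate 3 or 4 of day 1 (-1.35 each) or replicate 3 of day 3 (-1.40).

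Of 18 measured neuronal genes 5 fell, against 18.8% of all genes, and 1 rose, with a median of -0.23, and 3 fell without replicate 3 of day 3 or replicate 4 of day 1, and 4 without replicate 1 of day 3. No call held with the wider allowance. Snap25, of the synaptic release machinery, was at -0.13, -0.03, -0.04 and 0.00 on day 1 and at -0.53, -0.60, -0.54 and -0.67 on day 3, with no overlap, a fall of 0.54 ± 0.15 (adjusted p in limma 0.0083). The neuronal enolase gene Eno2 fell by 0.56 ± 0.13. Gap43, a growth cone protein, rose by 0.47 ± 0.10, and the neuropeptide gene Gal rose by 1.53 ± 0.33, from between -0.62 and -0.11 to between 0.35 and 1.93. Gal is one of 11 genes of the axon injury list, of which 2 rose and 1 fell, and 4 and 2 without replicate 1 of day 3. None of the 8 motor neuron genes passed. The neuronal median of -0.23 was no larger in size than those of the forebrain and choroid plexus lists given above, whose part was not tested.

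Genes of reactive astrocytes were high on both days. Of 15 genes of reactive astrocytes 1 rose and 1 fell, and their medians were 1.83 above control at day 1 and 2.18 at day 3, with 13 genes higher on each day. With quantile normalisation none rose and 5 fell between the days, at a median difference of -0.50 against -0.03. Serpina3n, a secreted protease inhibitor, was at 4.53, 4.70, 4.90 and 4.35 on day 1 and at 4.24, 4.11, 4.15 and 4.69 on day 3, and its difference of -0.32 ± 0.21 did not pass. Gfap, the filament protein of astrocytes, was at 1.27, 0.83, 1.16 and 0.92 on day 1, and on day 3 at -0.53 in replicate 1 and 0.95, 1.17 and 1.37 in the others, and did not pass. Vim, vimentin, rose by 0.70 ± 0.18 (adjusted p in limma 0.023), a call lost without replicate 4 of day 1 (0.55) or replicate 3 or 4 of day 3 (0.61 and 0.62). Vim did not rise with quantile normalisation either. Aspg, an asparaginase, fell by 0.72 ± 0.12. Of 10 homeostatic astrocyte genes 3 fell at a median of -0.21, and without replicate 1 of day 3, 1 rose and 3 fell at a median of 0.07. With all arrays the falls were the glutamate transporter gene Slc1a2 by 0.66 ± 0.11, the aldolase gene Aldoc by 0.73 ± 0.11 and the growth factor receptor gene Fgfr3 by 1.08 ± 0.29, whose day 3 values were -1.41 in replicate 1 and 0.41 to 0.78 in the others.

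Oligodendrocyte precursor genes were low at day 1, by a median of 0.44 with 5 of 10 below control. From day 1 to day 3, 3 of 10 rose and 1 fell, against 13.5% and 18.8% of all genes. Without replicate 1 of day 3, 5 rose and none fell, while without replicate 3 of day 3, 1 rose and 1 fell. Cspg4, the NG2 proteoglycan, was at -0.30, -0.57, -0.48 and -0.16 on day 1 and at -0.59, 0.23, 0.75 and 0.76 on day 3, and rose by 0.66 ± 0.19 (adjusted p in limma 0.0090), which did not pass without replicate 3 of day 3 (0.51). Gpr17, a receptor of precursors about to differentiate, was at -1.66, -1.95, -1.92 and -0.98 and then at -2.89, 0.18, 0.18 and -0.08. It did not pass with replicate 1 (0.98 ± 0.37, adjusted p 0.075) and rose by 1.72 without it (adjusted p 1.8e-07). Of 16 myelin genes 1 fell, the regulator Myrf by 0.56 ± 0.15, and without replicate 1 of day 3, 2 rose and 2 fell. For 10 of these 16 genes the offset was uncertain by more than 0.2, so changes of that size in myelin genes, such as Mbp at -0.21 ± 0.11, could not be called.

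The type I interferon list held 3 rises and 1 fall among 13 genes, and 1 and 2 without replicate 1 of day 3. Bst2, which tethers virus particles and is made by many activated cells, went from 1.73, 0.91, 0.72 and 0.65 to 2.95, 2.19, 3.11 and 3.57 and rose by 1.95 ± 0.31 (adjusted p in limma 3.0e-05), while Ifit1 was at 2.80 in replicate 1 of day 3 and 0.36 to 0.74 in the others. Skeletal muscle genes, which mark tissue beside the cord, differed among the spinal controls, whose list means were 1.72, 1.08, -0.86 and -1.94, and lay at -2.37 to -1.94 in day 1 and -2.49 to -1.08 in day 3 arrays. Of 12 muscle genes 1 fell between the days, of 9 cilia genes of ependyma none passed, of 6 Schwann cell genes 1 fell and of 3 red blood cell genes 1 fell. Of 14 Hox genes 2 fell, Hoxb5 and Hoxb8, at a list median of 0.07, which was -0.33 with quantile normalisation, and without replicate 1 of day 3, 2 rose and 1 fell.

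**Figure D5:**
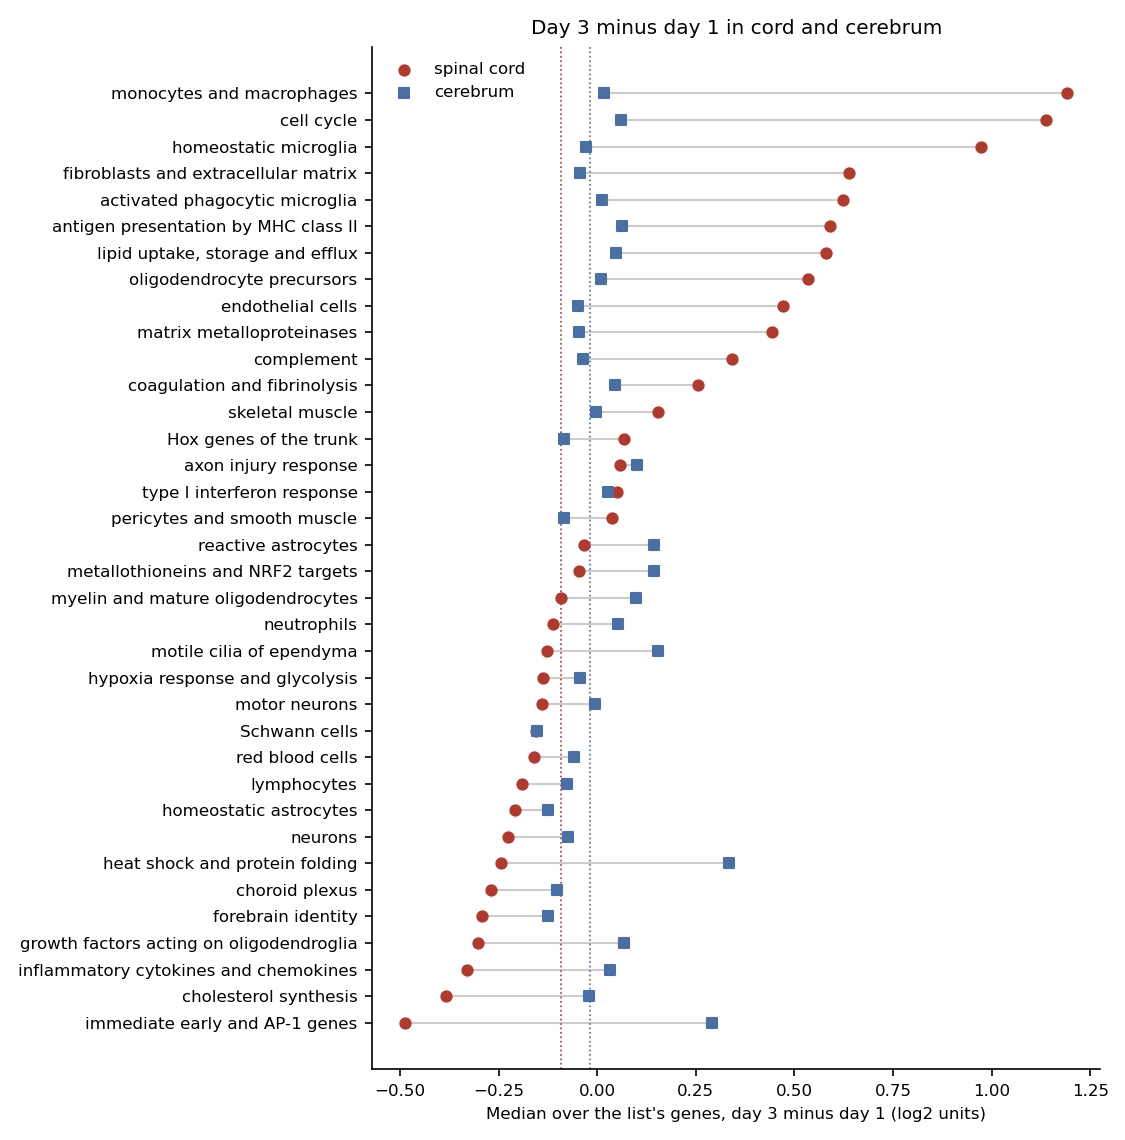
Each row is a gene list, with the median of day 3 minus day 1 over its measured genes in the cord (red circle) and the cerebrum (blue square) in log2 units, and dotted lines at the medians of all genes, -0.09 and -0.02. The cord's medians run from -0.49 for immediate early genes to 1.19 for monocytes and macrophages, while those of the cerebrum lie within a narrower range, with heat shock at 0.33 and immediate early genes at 0.29 at its upper end. On both of these lists cerebral day 3 replicate 2 has the highest mean of its group, at 1.05 against 0.27 to 0.33 for heat shock and 0.08 against -0.51 to -0.22 for immediate early genes.

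The cord's change lay furthest below the cerebrum's for Hspb1, Rhoj, Gadd45b, Il11, Tnfrsf12a and Itih3. The difference was -2.20 ± 0.58 for the small heat shock protein gene Hspb1, -2.06 ± 0.56 for Rhoj, -1.96 ± 0.57 for Gadd45b, -1.87 ± 0.48 for Il11, -1.72 ± 0.40 for Tnfrsf12a and -1.70 ± 0.41 for Itih3 (adjusted p in limma 0.019, 0.022, 0.033, 0.016, 0.0082 and 0.010). Cerebral day 3 replicate 2 stood apart in 4 of these, with Hspb1 at 3.76 against 0.88 to 1.02 in the other 3 arrays of its group, Rhoj at 3.63 against 1.09 to 1.46, Gadd45b at 1.99 against -0.44 to -0.27 and Tnfrsf12a at 2.79 against 0.85 to 1.13. Without it the differences were -1.50 for Hspb1, -1.48 for Rhoj, -1.27 for Tnfrsf12a and -1.37 for Gadd45b, and the last no longer passed (adjusted p in limma 0.075). For Itih3 and Il11 they were -1.69 and -1.77. The call for Gadd45b was lost on leaving out any of 7 arrays in turn, that one included, with differences of -1.90 to -1.37.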

How the data were processed

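Each of the 32 arrays was one total RNA sample of cerebrum or spinal cord, snap frozen and extracted with TRIzol per the labels' protocols. The deposited values were read as log2 values that the authors had centred per probe, since the median of controls and day 1 was 0 in 100% of probes. The summarisation method, software and annotation build behind them were not given in the sources used here. Probes were named from GEO's platform annotation, and 2634 of 22206 probes without 1 symbol were left out. Probes of the same gene were averaged, which touched 55 genes.

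Day 3 arrays had been centred apart, and a per-probe offset placed them beside the controls. Its median size was 0.0718. Differences across it were tested against a bound, the uncertainty of the offset plus an allowance of 0.0127, so p-values test for more than that bound. Group means of all 32 arrays were fitted with limma 3.58.1 in R 4.3.3, with 24 residual degrees of freedom, and p-values were adjusted over 19505 genes by the Benjamini-Hochberg method. The contrast of cord against cerebrum was tested against 0. The number of arrays, 4 per group, limits the precision, and the median standard error was 0.13. The sample titles of each group carry their own range of numbers, and should they stand for batches, those cannot be told apart from the groups.

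Named genes were the 12 largest rises and 12 largest falls that passed with and without spinal day 3 replicate 1 with no overlap between the groups, the 6 largest in each direction of cord against cerebrum, and members of 36 gene lists. Predicted genes and olfactory receptors were passed over. Members and lists were chosen with earlier results of these data known. Alternatives covered the offset, scaling, array weights, the arrays fitted and each array left out. The fit was checked on simulated data. Promoters came from RefSeq's GRCm38.p6 table, and tables were handled with Python 3.11.15, pandas 2.3.3 and numpy 2.4.6.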

Additional observations from a re-analysis of the deposited data

Results flagged for a closer look

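Among 332 groups of 4 arrays examined, 17 held an array whose gap to its nearest neighbour exceeded Dixon's 95% critical value for the group's range, and chance alone gives about 1 in 20. Spinal day 3 replicate 1 was that array for Retnlg (0.8867 of the range), Fgfr3 (0.8308), Gpr17 (0.9128), Ifit1 (0.8442), the homeostatic microglia list (0.8711) and the myelin list (0.844). Spinal day 1 replicate 1 was it for Mki67 (0.9521), Pclaf (0.9764), Mcm6 (0.8484), Fdft1 (0.9608) and the cholesterol synthesis list (0.9219). Spinal day 1 replicate 3 was it for Hrh3 (0.874), Top2a (0.8315) and Col4a1 (0.8814), replicate 2 for Msr1 (0.8408) and replicate 4 for Cybb (0.844). Spinal day 3 replicate 3 was it for Col3a1 (0.9056).

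The change from day 1 to day 3 differed between cord and cerebrum, by limma's test of the difference itself, for 25 of 27 genes picked by size of change and for 71 of 130 genes followed singly. Over all genes it was higher in the cord for 4.82% and lower for 3.38%. Of the 27, 12 were picked by this contrast itself and the others by the cord's change, which is part of it, and the 130 include the 27. These counts were therefore largely set by the choice of genes and are no test. Among the 25 the change was larger in the cord for the cell division genes Pbk (4.506), Mki67 (4.484), Cdk1 (2.834), E2f8 (2.577) and Pclaf (1.988). It was also larger for the phagocyte genes Mpeg1 (3.715), Gpnmb (3.326), Ms4a7 (2.986), Cd300c2 (2.79), Cybb (2.621) and Lyz2 (2.585) and for the matrix gene Lum (2.487). It was lower in the cord for Hspb1 (-2.199), Rhoj (-2.057), Gadd45b (-1.956) and Tnfrsf12a (-1.717) and the cytokines Il11 (-1.868) and Il33 (-1.426). It was lower too for Itih3 (-1.698), Lpo (-1.684), Lalba (-1.381), Gpr83 (-1.378), Pdlim4 (-1.336), Slc6a5 (-1.3) and Adamts4 (-0.9068). Among list members whose contrast is reported, it was larger in the cord for P2ry12 (2.407), Trem2 (2.413) and Kdr (1.657).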

How the results depend on the processing

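None of the named single genes that passed changed sign under any alternative run. The balance of calls did, with 2626 rises and 3666 falls in the main setting, 3570 and 1915 with each array shifted to a median of 0, 1593 and 1234 with quantile normalisation, 1646 and 1390 with the values as deposited and 1066 and 582 with the allowance of 0.2. The medians of 10 of 36 lists, all within 0.21 of 0, changed sign under at least 1 of 6 alternatives, 5 of them without spinal day 3 replicate 1. Genes changed in the cord numbered 6292, against 3036 with the values as deposited, 2827 with quantile normalisation, 3062 in a fit of the 8 arrays alone and 1648 with the allowance of 0.2, and leaving out 1 array gave 4690 to 6756. Over all genes these are totals under each setting and not counts of shared genes. Counts within the gene lists were 144, then 89 with the 8 arrays alone, 80 with the allowance of 0.2 and 108 to 155 with 1 array left out. Genes that changed by over 1 numbered 433, against 279 with the values as deposited, 198 with quantile normalisation and 373 to 547 with 1 array left out. The contrast of cord against cerebrum held 1599 genes, then 1024 with quantile normalisation, 2960 with array weights and 829 to 2251 with 1 array left out, the lowest counts being 829 without cerebral day 1 replicate 1, 947 without spinal day 3 replicate 3 and 1012 without cerebral day 3 replicate 1. The fit of 8 arrays has fewer arrays and the allowance raises the bound by construction, and for the others the cause was not tested. Of 130 single genes, 22 did not keep their call with quantile normalisation, 15 with the values as deposited, 23 with the 8 arrays alone and 24 with the allowance of 0.2, and with array weights 3 lost and 8 gained a call. Of the genes named for the contrast with the cerebrum, Cdk1 (1.51) and Ms4a7 (2.06) did not pass with quantile normalisation. The allowance of 0.2, the count over 1 and part of the single-gene alternatives were chosen after seeing the data. No paired analysis was possible because the labels carry no replicate numbers.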
